A study of Arabidopsis thaliana with 17 samples.

Results

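The Arabidopsis photosystem I mutant psae1-3 was compared with the wild-type accession Wassilewskija, 2 arrays against 2. The 4 arrays were taken by genotype label from the 17 arrays of a series on mutants of the long-term response of photosynthesis, and the change in transcript level was measured for every probe set that an annotation table pairs with 1 named gene. All plants were sampled as rosette leaves at an age of 4 weeks, and each array (labelled A or B within a genotype) held 5 µg of total RNA from 1 pool of 10 plants. Beside the 2 groups, psae1-3 stn7-1 (2 arrays), which carries the stn7-1 mutation as well, and the pair psad1-1 (2 arrays) and Col-0 (3 arrays) are used where they bear on a result. The labels give neither the parent of psae1-3 nor the nature of the allele; psae1-3, psae1-3 stn7-1 and Wassilewskija were deposited on a signal scale of their own, so in comparisons with Col-0 and psad1-1 the accession and the array set cannot be told apart. In RNA of whole leaves, fewer cells of a type and less RNA per cell cannot be told apart.

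PSAE is a small subunit on the stromal side of photosystem I that, with PSAD and PSAC, forms the surface where ferredoxin docks and takes up electrons. In Arabidopsis PSAE and PSAD are each encoded by a pair of nuclear genes, so that loss of one leaves some photosystem I in place but slows its electron output, and the plastoquinone pool between the photosystems becomes more reduced. STN7 is the thylakoid protein kinase that responds to that redox state, moving light-harvesting complex II between the photosystems in the short term and acting on photosynthetic gene expression in the long term.

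The mutated gene itself, PSAE-1 (AT4G28750), had nearly no signal in psae1-3. On a linear scale on which every array has a trimmed mean of 100, its signals were 23.7 and 63.2 in psae1-3 A and B, against 5105 and 4913 in Wassilewskija A and B. Both mutant arrays lay far below both wild-type arrays and above 8.15, the background signal below which a value was not taken as expression. The log2 change was −7.02 ± 0.34 (SE, adjusted p = 3.12e-09). PSAE-1 read 5.25 and 10.4 in psae1-3 stn7-1. The gene listed next to it on chromosome 4, AT4G28740, was higher, with 648 and 780 in psae1-3, against 333 and 341 in Wassilewskija (1.08 ± 0.14, adjusted p = 0.0003), and with 838 and 762 in psae1-3 stn7-1. Of 7 tested neighbours within 10 genes on either side, 1 passed, beside 11.1% of all named probe sets; AT4G28740 was named after its values were seen.

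Of 7354 tested probe sets with 1 named gene (7282 genes), 373 were higher in psae1-3 and 445 lower at an adjusted p of at most 0.05, which is 5.07% and 6.05%. The changes were mostly small: 48 (0.653%) rose and 119 (1.62%) fell by at least 2-fold. Over all 13648 tested probe sets, named or not, 1681 passed (12.3%). The arrays of the 2 groups did not overlap for 4093 of the named probe sets (55.7%), so that a lack of overlap alone says little at 2 arrays a group. The median log2 change over the named probe sets was −0.10, and the 5th to 95th percentiles were −0.75 to 0.62. Genes that rose by at least 2-fold were brighter than those that fell: their median signal was 173 in psae1-3, against 79.6 in Wassilewskija, while the genes that fell had a median of 20.5 in psae1-3, against 55.2 in Wassilewskija, and 13 of them were below background on both psae1-3 arrays.

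The number of calls rested on single arrays. The 818 named calls became 286 without Wassilewskija B, 428 without psae1-3 B, 518 without psae1-3 A and 615 without Wassilewskija A. The split between higher and lower depended on the scaling: 45.6% of the calls were higher, and 79.9% were so when arrays were scaled to their median, which moved the median change by 0.17; quantile normalization gave 61.3%. Arrays of 1 genotype correlated at 0.978 (psae1-3) and 0.976 (Wassilewskija), and arrays of different genotypes at 0.954 to 0.962. The ratio of actin 3′ to 5′ control signals, a measure of RNA integrity and labelling, was 15.4 and 22.8 in psae1-3, against 20.2 and 17.2 in Wassilewskija. The same ratio for GAPDH was 1.61 and 2.54 in psae1-3, against 2.12 and 1.69 in Wassilewskija. The mesophyll genes RCA, PRK and SBPASE, which mark leaf tissue and work in carbon fixation, were bright in both groups (3843 to 6704 in psae1-3, against 3328 to 6576 in Wassilewskija) and did not pass, with log2 changes of −0.03 to 0.24. With arrays scaled to their median, 2 of these 3 genes passed as higher, and none did under quantile normalization. Of 33 markers of other cell types, only FMA (guard cells) and PYK10 (roots) had a tested probe set, and neither passed. PYK10 was below background on all 4 arrays, so its result carries no information on cell types.

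**Figure D1:**
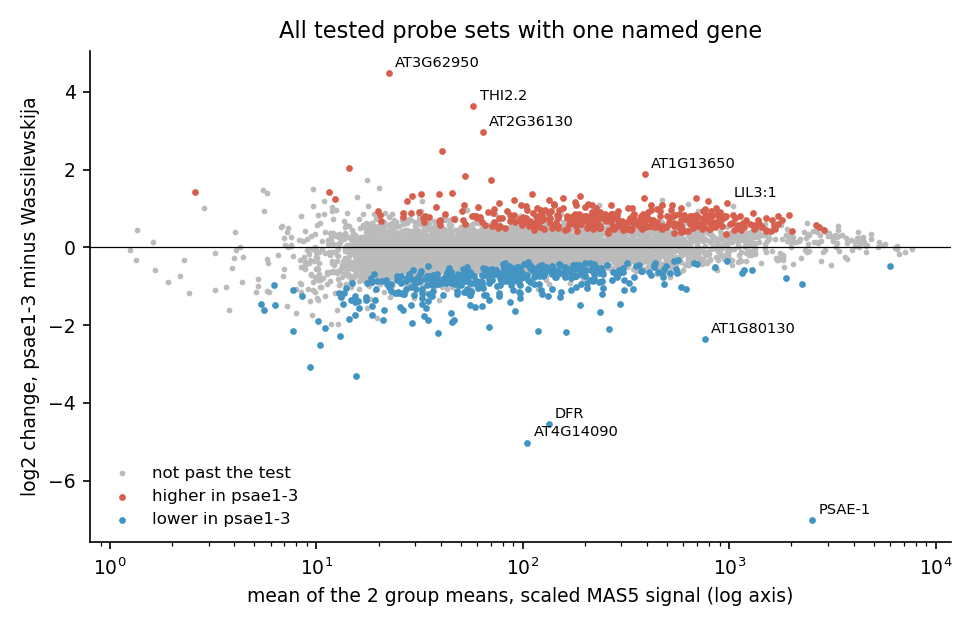
Each point is 1 of 7354 tested probe sets with 1 named gene: the mean of the group means in scaled signal (x, log axis) against the log2 change, psae1-3 minus Wassilewskija (y). The 373 probe sets higher in psae1-3 lie at up to 4.48 and include many bright ones, and the 445 lower ones lie at down to −7.02 for PSAE-1, with most of the large falls among dim probe sets.

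Many nuclear genes for proteins that build and maintain the thylakoid membrane were higher in psae1-3. Of 13 tested genes for thylakoid assembly, protein targeting and proteases, 10 were higher and none lower, where 5.07% of all named probe sets were higher, and the median log2 change was 0.68 beside −0.10 over all named probe sets. Of 19 tested genes for proteins of the thylakoid lumen, among them the plastid immunophilins, 14 were higher and none lower (median 0.78). Quantile normalization over 17 arrays gave 7 of 13 and 14 of 19. Both lists were written after values had been seen, so that their counts describe these arrays and are no independent evidence of a direction. Single arrays again mattered: without Wassilewskija B the counts were 4 of 13 and 8 of 19, and without psae1-3 B 5 of 13 and 11 of 19, while the medians stayed between 0.56 and 0.94 when any 1 of the 4 arrays was left out.

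LIL3:1, a membrane protein with a light-harvesting-like fold that anchors enzymes of chlorophyll synthesis, read 1474 and 1224 in psae1-3, against 680 and 543 in Wassilewskija. Both psae1-3 arrays were well above both wild-type arrays, and the log2 change was 1.14 ± 0.13 (adjusted p = 0.000118). SECE1, a subunit of the thylakoid translocase that inserts proteins made in the plastid, read 273 and 313 in psae1-3, against 134 and 143 in Wassilewskija (1.08 ± 0.18, adjusted p = 0.00171). AT5G02160 had the largest change of the assembly list, with 1065 and 1116 in psae1-3 and 479 on each Wassilewskija array (1.19 ± 0.13, adjusted p = 0.00011). These 3 genes passed without any 1 of the 4 arrays.

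Factors that assemble the photosystems were among those that rose. AT1G22700, which encodes a tetratricopeptide repeat protein required for photosystem I assembly, read 339 and 299 in psae1-3, against 194 and 188 in Wassilewskija (0.74 ± 0.13, adjusted p = 0.00262), and passed without any 1 of the 4 arrays. HCF101, which supplies the iron-sulfur clusters of photosystem I, read 907 and 1038 in psae1-3, against 677 and 591 in Wassilewskija (0.62 ± 0.14, adjusted p = 0.0106). The ranges of the 2 groups were apart for both genes, as they were, in either direction, for 55.7% of all named probe sets. Of the photosystem II assembly factors, LPA1 rose by 0.62, LPA2 by 0.82 and PAM68 by 0.73 (adjusted p = 0.0105, 0.00663 and 0.0338). Adjusted p-values without Wassilewskija B were 0.106 for HCF101, 0.0925 for LPA1, 0.0752 for LPA2 and 0.394 for PAM68, and without psae1-3 B they were 0.0854 for HCF101, 0.0545 for LPA1 and 0.0846 for PAM68; PAM68 also missed the threshold without psae1-3 A (0.15).

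In the lumen list the largest change was that of AT4G26555, an immunophilin (peptidyl-prolyl isomerase) gene, with 179 and 195 in psae1-3, against 86.9 and 75.7 in Wassilewskija (1.21 ± 0.14, adjusted p = 0.000209). AT5G52970, a thylakoid lumen protein gene, read 647 and 630 in psae1-3, against 327 and 275 in Wassilewskija (1.09 ± 0.12, adjusted p = 0.000118). In both genes the psae1-3 arrays were close together and far above the wild-type arrays. The lumen pentapeptide protein gene AT2G44920 rose by 1.00 ± 0.15 (adjusted p = 0.000794), the PsbP-like gene AT2G28605 by 0.93 ± 0.16 (adjusted p = 0.00202) and the immunophilin gene AT1G20810 by 0.86 ± 0.12 (adjusted p = 0.000635). All 5 passed without any 1 of the 4 arrays.

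**Figure D2:**
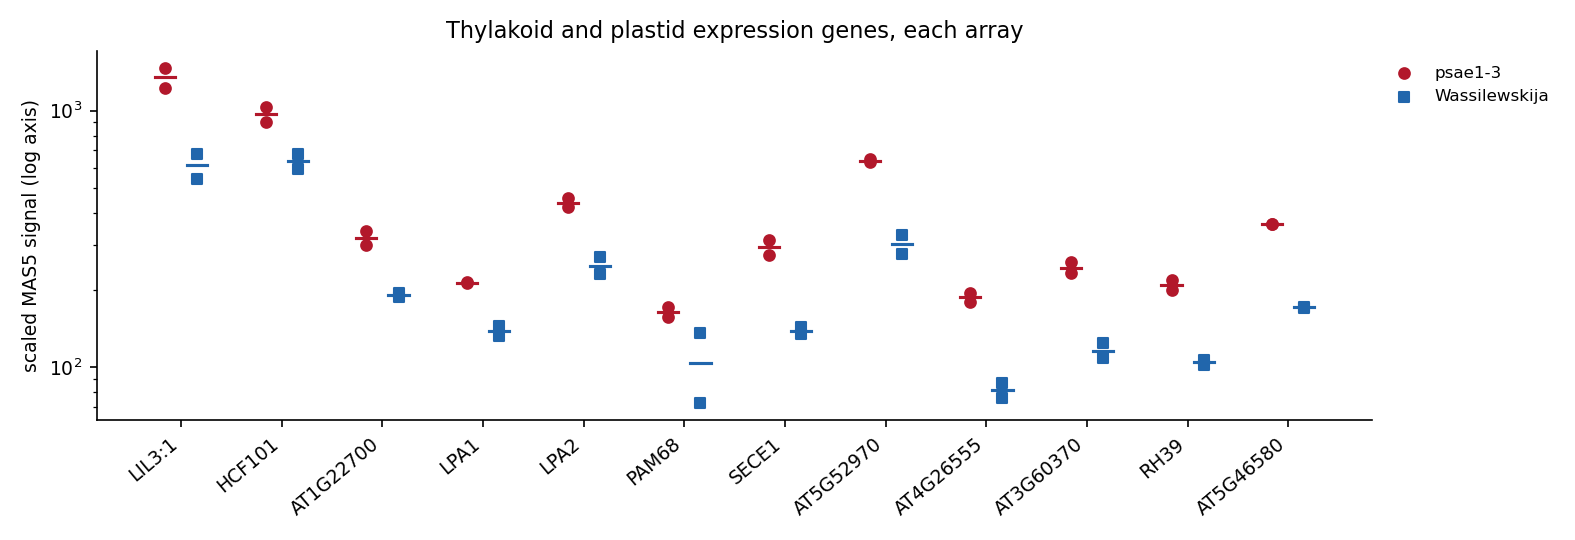
Scaled signals (y, log axis) on each array for 12 nuclear genes of thylakoid assembly, the lumen and plastid gene expression, with psae1-3 (circles) left of Wassilewskija (squares) and a bar at each group mean. For every gene both psae1-3 arrays lie above both Wassilewskija arrays, the closest being PAM68 at 157 in psae1-3 B, against 135 in Wassilewskija A. The 12 genes come from lists written after values had been seen. The arrays of the groups did not overlap, in either direction, for 55.7% of all named probe sets.

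Nuclear genes for the plastid's own gene expression were also among those higher. All 7 tested plastid ribosomal protein genes passed as higher in psae1-3, of 35 on the list and beside 5.07% of all named probe sets, with log2 changes of 0.44 to 0.81 and a median of 0.70. Under quantile normalization, over 17 or 6 arrays, 4 of the 7 passed. The largest was AT1G64510, with 1484 and 1385 in psae1-3, against 975 and 687 in Wassilewskija (0.81 ± 0.15, adjusted p = 0.0036). AT1G29070 read 2251 and 2112 in psae1-3, against 1334 and 1171 in Wassilewskija (0.80 ± 0.15, adjusted p = 0.00354). The ranges of the groups were apart for both, as they were, in either direction, for 55.7% of all named probe sets. Wassilewskija B was lower than Wassilewskija A for both, and without it only 1 of the 7 passed, AT1G29070, with an adjusted p of 0.048 (0.0608 for AT1G64510); without psae1-3 B 4 of the 7 passed. The list's median stayed between 0.53 and 0.85 when any 1 array was left out.

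Among 7 tested nuclear genes for plastid transcription, RNA processing and translation factors, 5 were higher and none lower (median 0.75). Of all named probe sets, 5.07% were higher. The list was written after values had been seen, and 4 to 7 of the 7 passed under the other scalings. RH39, a helicase of plastid ribosomal RNA maturation, read 219 and 200 in psae1-3, against 102 and 106 in Wassilewskija (1.01 ± 0.21, adjusted p = 0.00554). AT5G46580, a pentatricopeptide repeat protein gene, read 361 on both psae1-3 arrays, against 171 and 170 in Wassilewskija (1.08 ± 0.20, adjusted p = 0.00281). In both, the arrays of a group nearly coincided relative to the distance between groups. AT4G26370, which encodes a protein with a NusB domain, had the largest change, 1.26 ± 0.26 (adjusted p = 0.00588, and 0.0641 without Wassilewskija B). Without Wassilewskija B 2 of the 7 passed, and without psae1-3 A or Wassilewskija A 3.

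The photosynthetic complexes themselves showed smaller values. PSAN, a lumenal subunit and, apart from PSAE-1, the only photosystem I subunit with a tested probe set, read 4583 and 4909 in psae1-3, against 4194 and 4119 in Wassilewskija (0.19 ± 0.10, adjusted p = 0.204). None of 3 photosystem II subunits, 3 light-harvesting complex II proteins or 3 electron carrier and ATP synthase genes passed. This depended on the scaling. With arrays scaled to their median, PSAN, 1 of the 3 photosystem II genes and 1 of the 3 electron carrier genes passed as higher. Under quantile normalization none did. Their log2 changes were 0.06 for PSBY, 0.19 for PSBW and 0.38 for PSB27, and −0.05 to 0.35 for the LHCB4 genes. AT2G26500, a cytochrome b6f subunit gene, was near the threshold with 5436 and 5495 in psae1-3, against 4456 and 4120 in Wassilewskija (0.35 ± 0.11, adjusted p = 0.053). PGRL1B, of cyclic electron flow, read 207 and 233 in psae1-3, against 331 and 310 in Wassilewskija (−0.55 ± 0.19, adjusted p = 0.0732). The arrays of these 2 genes did not overlap between groups, but neither passed.

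Genes of the chloroplast NADH dehydrogenase-like complex, which works with photosystem I in cyclic electron flow, leaned higher. NdhN read 1067 and 1114 in psae1-3, against 728 and 714 in Wassilewskija (0.60 ± 0.11, adjusted p = 0.00381). NdhL rose by 0.50 ± 0.11 (adjusted p = 0.00705, and 0.087 without Wassilewskija B or 0.0549 without psae1-3 B; under quantile normalization NdhL did not pass, and with a fit on 6 arrays NdhN did not either), and NdhS, a subunit near the ferredoxin site, gave 0.08 ± 0.20 (adjusted p = 0.814). All 9 plastid-encoded subunits of this complex had a positive log2 change (median 0.45), of which ndhE alone passed, with 992 and 1024 in psae1-3, against 521 and 504 in Wassilewskija (0.98 ± 0.25, adjusted p = 0.0174, and 0.0595 to 0.102 without any 1 of the 4 arrays). None of 35 other probe sets for plastid-encoded photosynthesis genes passed (median 0.24, 30 positive), and none of 23 for other plastid genes (median 0.31). rbcL, for the large subunit of Rubisco, had the largest value there, with 751 and 979 in psae1-3, against 376 and 418 in Wassilewskija (1.11 ± 0.47, adjusted p = 0.129). Plastid messages mostly carry no poly(A) tail, and how they entered the labelled RNA is not given in the sources used here.

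Chlorophyll synthesis genes were among the modest risers. CHLI2, a subunit of magnesium chelatase, read 305 and 237 in psae1-3, against 143 and 120 in Wassilewskija (1.04 ± 0.17, adjusted p = 0.00184). CHLM, the magnesium protoporphyrin methyltransferase, rose by 0.43 ± 0.12 (adjusted p = 0.0251) and HEMB1, of early tetrapyrrole synthesis, by 0.38 ± 0.12 (adjusted p = 0.0414). PORB, a protochlorophyllide reductase, gave 0.56 ± 0.19 (adjusted p = 0.0661) and GSA1 0.39 ± 0.18 (adjusted p = 0.157). Thus 3 of 5 tested tetrapyrrole genes were higher, beside 5.07% of all named probe sets. The list's median was 0.43, beside −0.10 over all named probe sets. That count depended on the scaling, with 5 of 5 when arrays were scaled to their median and 1 of 5, CHLI2, under quantile normalization over 17 or 6 arrays. CHLI2 passed without any 1 array, HEMB1 in none of those fits (0.0616 to 0.232), and CHLM only without psae1-3 A; the list kept 2 calls without that array and 1 without each of the others. The carotenoid gene LYC, a lycopene cyclase, rose by 0.39 ± 0.12 (adjusted p = 0.0434, 0.14 to 0.299 without psae1-3 B, Wassilewskija A or Wassilewskija B, and 0.121 under quantile normalization).

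Of 11 tested antioxidant and plastid redox genes 4 were higher and none lower (median 0.49), beside 5.07% of all named probe sets. There were 2 calls without psae1-3 B or Wassilewskija B, 9 when arrays were scaled to their median and 2 under quantile normalization over 17 or 6 arrays. TAPX, the ascorbate peroxidase bound to the thylakoid, read 904 and 997 in psae1-3, against 652 and 529.5 in Wassilewskija (0.69 ± 0.12, adjusted p = 0.00261). The thioredoxin y gene ty2, whose protein supplies electrons to plastid antioxidant enzymes, read 1248 and 1430 in psae1-3, against 776 and 740 in Wassilewskija (0.82 ± 0.15, adjusted p = 0.00337). Both had all psae1-3 arrays above all wild-type arrays, beside 55.7% of all named probe sets without overlap in either direction. When any 1 array was left out, the log2 changes were 0.54 to 0.84 for TAPX and 0.72 to 0.92 for ty2. The thioredoxin genes THX (x type, 0.51 ± 0.12) and TRXF2 (f type, 0.55 ± 0.13), the second of which activates carbon fixation enzymes with electrons from photosystem I by way of ferredoxin, had adjusted p-values of 0.012 and 0.0131. They did not pass without Wassilewskija B (0.156 and 0.141) or psae1-3 B (0.0819 and 0.097). NTRC, the NADPH-dependent plastid thioredoxin reductase, gave 0.53 ± 0.18 (adjusted p = 0.0622).

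In photorespiration, AT1G80380 (glycerate kinase) read 890 and 1126 in psae1-3, against 634 and 510 in Wassilewskija (0.82 ± 0.13, adjusted p = 0.00153). AT1G11860 (the T protein of glycine decarboxylase) read 3149 and 3166 in psae1-3, against 2276 and 1984 in Wassilewskija (0.57 ± 0.11, adjusted p = 0.00314). The ranges were apart for both genes, as they were, in either direction, for 55.7% of all named probe sets. When any 1 array was left out, the log2 changes were 0.65 to 0.99 for AT1G80380 and 0.47 to 0.67 for AT1G11860. HPR (hydroxypyruvate reductase) gave 0.14 ± 0.11 (adjusted p = 0.415). In the Calvin cycle AT1G56190, a phosphoglycerate kinase gene, was the only 1 of 4 to pass (0.42 ± 0.13, adjusted p = 0.0482, and 0.309 without Wassilewskija B or 0.331 without psae1-3 B); 3 of the 4 passed when arrays were scaled to their median and none under quantile normalization.

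Genes for proteins of cytosolic ribosomes leaned upward as a body while few passed. Of 113 tested probe sets, a list written after values had been seen, 10 were higher and none lower, 109 had a positive log2 change and the median was 0.46. All named probe sets had 5.07% higher. The count was 39 when arrays were scaled to their median, 7 under quantile normalization and 2 under quantile normalization with a fit on 6 arrays, with medians of 0.45 to 0.63. AT2G20450, of the large subunit, was the highest, with 171 and 97.4 in psae1-3, against 48.6 and 75.4 in Wassilewskija (1.09 ± 0.29, adjusted p = 0.0223). The value of this list was carried by 1 array: psae1-3 A read higher than psae1-3 B, with summed signals of 68301 and 44627 over the list, against 42108 and 37192 in Wassilewskija. Without psae1-3 A no probe set passed, 85 of 113 were positive and the median was 0.14, and without psae1-3 B 47 passed and the median was 0.80. Without Wassilewskija A 6 passed and without Wassilewskija B 1. What set psae1-3 A apart was not tested.

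**Figure D3:**
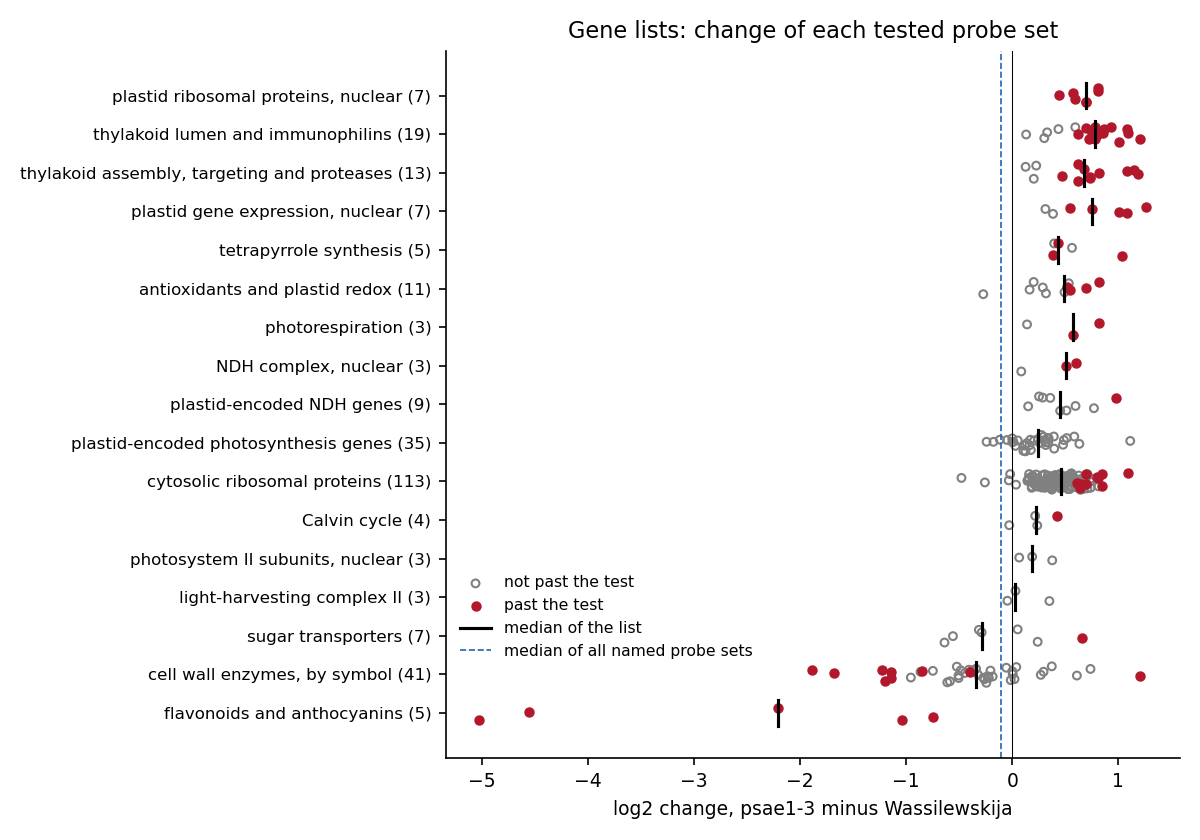
Log2 change, psae1-3 minus Wassilewskija (x), of every tested probe set in 17 gene lists (y, number tested in brackets), filled where the adjusted p was at most 0.05, with a bar at each list's median and a dashed line at −0.10, the median of all named probe sets. The lists of nuclear plastid ribosomal, lumen, thylakoid assembly and plastid expression genes have medians of 0.68 to 0.78, and the flavonoid list lies at −2.21.

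Genes of anthocyanin synthesis fell in psae1-3, and AT4G14090 and DFR had the lowest fitted values after PSAE-1. AT4G14090, which encodes an anthocyanin glucosyltransferase, read 16.6 and 0.897 in psae1-3, against 88.0 and 314 in Wassilewskija (−5.02 ± 0.79, adjusted p = 0.00123). DFR, the dihydroflavonol reductase at the entry to anthocyanins, read 25.8 and 2.56 in psae1-3, against 87.4 and 417 in Wassilewskija (−4.56 ± 0.82, adjusted p = 0.00277). UF3GT, another anthocyanin glycosyltransferase gene, read 20.6 and 6.77 in psae1-3, against 30.4 and 98.1 in Wassilewskija (−2.21 ± 0.51, adjusted p = 0.0108). These 3 genes were named on condition that the groups did not overlap. Arrays of 1 group differed several-fold, with psae1-3 B the lowest and Wassilewskija B the highest for all 3 genes. AT4G14090, DFR and UF3GT were below background on psae1-3 B alone, so their fitted sizes rest on a signal below background: with that array set to the background, they were at least 14.3-fold, 13.2-fold and 4.22-fold lower.

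The flavonoid glycosyltransferase genes UGT78D1 and UGT78D2 fell less. UGT78D1, a flavonol rhamnosyltransferase, read 197 and 128 in psae1-3, against 341 and 312 in Wassilewskija (−1.04 ± 0.19, adjusted p = 0.00262), and UGT78D2, a flavonoid glucosyltransferase, read 156 and 114 in psae1-3, against 185 and 270 in Wassilewskija (−0.74 ± 0.18, adjusted p = 0.0146). With them all 5 tested genes of the flavonoid list were lower, of 19 on the list, beside 6.05% of all named probe sets (median −2.21; 3 of 5 under quantile normalization with a fit on 6 arrays). UF3GT and UGT78D2 did not pass without psae1-3 B (0.124 and 0.146) or Wassilewskija B (0.153 and 0.187), which left 3 of 5. CHIL, a chalcone isomerase-like gene of early flavonoid synthesis named after its values were seen, read 35.2 and 29.9 in psae1-3, against 76.3 and 113 in Wassilewskija (−1.51 ± 0.28, adjusted p = 0.00297).

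**Figure D4:**
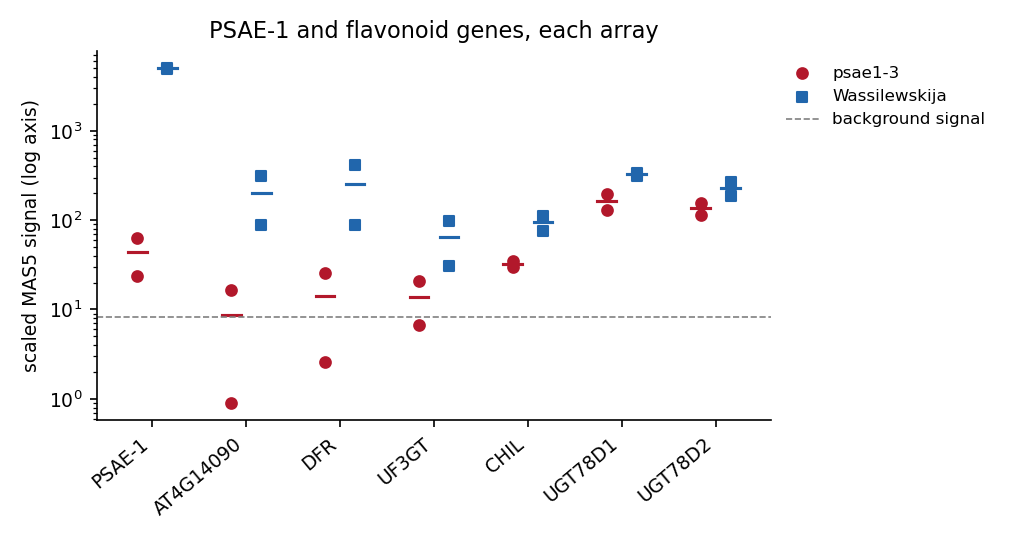
Scaled signals (y, log axis) on each array for PSAE-1 and 6 flavonoid genes, with psae1-3 (circles) left of Wassilewskija (squares), a bar at each group mean and a dashed line at the background of 8.15. Both psae1-3 arrays lie below both Wassilewskija arrays for all 7 genes, and the arrays of a group are widely spread for AT4G14090, DFR and UF3GT. Lack of overlap was a condition for naming these last 3 genes. It was seen, in either direction, at 55.7% of all named probe sets.

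Glutaredoxins of the plant CC type, small thiol proteins that act with TGA transcription factors and include nitrate-responsive members, moved both ways. AT3G62950 had the highest fitted value of the named genes, with 58.0 and 28.6 in psae1-3, against 0.963 and 2.12 in Wassilewskija, both of which lay below background. It was at least 5.00-fold higher in psae1-3, a bound below those of THI2.2 (8.43), AT2G36130 (7.07) and AT3G07350 (5.25) (fitted log2 change 4.48 ± 0.78, adjusted p = 0.00249). AT1G06830 (1.02 ± 0.16, adjusted p = 0.00145) and AT5G18600 (0.73 ± 0.18, adjusted p = 0.0143) were also higher. AT5G11930 fell, with 68.5 and 25.6 in psae1-3, against 151 and 231 in Wassilewskija (−2.16 ± 0.35, adjusted p = 0.00148), as did AT4G33040 (−1.48 ± 0.29, adjusted p = 0.00399). Of 9 tested members, a list written after values had been seen, 3 were higher and 2 lower (median −0.49). Over all named probe sets, 5.07% were higher and 6.05% lower. AT5G18600 did not pass without psae1-3 A (0.0987) or Wassilewskija A (0.0982), nor AT4G33040 without Wassilewskija B (0.0637). The arrays of the groups did not overlap for any of these 5 genes, beside 55.7% of all named probe sets without overlap. AT3G62950 and AT5G11930 were named on that condition.

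Genes of cell wall synthesis and remodelling leaned lower. Of 41 tested probe sets, a list written after values had been seen, 8 were lower and 1 higher, with a median log2 change of −0.34, beside 6.05% lower over all named probe sets; 5 were lower when arrays were scaled to their median. PMEPCRF, a pectin methylesterase gene, read 137 and 157 in psae1-3, against 355 and 318 in Wassilewskija (−1.197 ± 0.13, adjusted p = 0.000116). PME61, also of the pectin methylesterase family, read 28.8 and 14.7 in psae1-3, against 86.6 and 49.98 in Wassilewskija (−1.68 ± 0.30, adjusted p = 0.00288). EXPB3, a beta-expansin that loosens walls, read 37.8 and 32.2 in psae1-3, against 82.8 and 71.6 in Wassilewskija (−1.14 ± 0.23, adjusted p = 0.0044). The groups did not overlap for these 3 genes, nor, in either direction, for 55.7% of all named probe sets. When any 1 array was left out, the log2 changes were −1.30 to −1.10 for PMEPCRF, −2.16 to −1.19 for PME61 and −1.26 to −1.03 for EXPB3. The 1 gene that rose was CSLA01 of the cellulose synthase-like family, with 162 and 93.8 in psae1-3, against 57.7 and 49.6 in Wassilewskija (1.205 ± 0.29, adjusted p = 0.014, and 0.16 without psae1-3 A or 0.106 without Wassilewskija B). Without psae1-3 B 3 of the 41 were lower, without Wassilewskija A 4 and without Wassilewskija B 5. TUB1, a beta-tubulin gene outside the list, read 25.3 and 32.7 in psae1-3, against 92.7 and 70.8 in Wassilewskija (−1.49 ± 0.22, adjusted p = 0.000794).

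Outside these groups, several single genes changed by more. THI2.2, a thionin (a small antimicrobial protein), read 97.7 and 110 in psae1-3, against 18.6 and 3.73 in Wassilewskija (3.64 ± 0.45, adjusted p = 0.000297). AT2G36130, a cyclophilin gene, read 109 and 110 in psae1-3, against 29.4 and 6.77 in Wassilewskija (2.96 ± 0.40, adjusted p = 0.000474). AT1G13650 read 584 and 639 in psae1-3, against 161 and 173 in Wassilewskija (1.87 ± 0.21, adjusted p = 0.000118). The psae1-3 arrays nearly coincided for these 3 genes, which were named on condition that the groups did not overlap. For THI2.2 and AT2G36130 the Wassilewskija arrays were far apart, with Wassilewskija B below background. With that array set to the background, they were at least 8.43-fold and 7.07-fold higher. AT3G07350 (2.48), AT4G37220 (2.03, at least 2.78-fold as both Wassilewskija arrays lay below background), AT2G34060, a peroxidase gene (1.83), and AT4G25780, of the secreted PR-1-like family (1.72), followed. All 7 passed without any 1 array. The rest of the 15 had log2 changes of 1.31 to 1.43, and of them AT3G25580 (adjusted p = 0.0287) passed in none of the fits without 1 array.

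Of the 15 most lowered genes AT1G80130 read 311 and 189 in psae1-3, against 1020 and 1537 in Wassilewskija (−2.37 ± 0.27, adjusted p = 0.000129). JAL23, a jacalin-related lectin, read 30.8 and 22.8 in psae1-3, against 96.9 and 124 in Wassilewskija (−2.05 ± 0.31, adjusted p = 0.000949). Both were named on condition that the groups did not overlap. When any 1 array was left out, the log2 changes were −2.73 to −2.01 for AT1G80130 and −2.27 to −1.83 for JAL23. AT5G22460 was at least 3.44-fold lower, AT3G10190 at least 2.09-fold and the chitinase gene CHI (AT2G43570) at least 2.05-fold, since both psae1-3 arrays were below background for each of them. CHI read 1.75 and 2.23 in psae1-3, against 17.8 and 15.6 in Wassilewskija (adjusted p = 0.00143). AT5G55450, a lipid transfer protein family gene, read 81.2 and 96.1 in psae1-3, against 650 and 222 in Wassilewskija (−2.11 ± 0.35, adjusted p = 0.00178).

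Genes of sugar, starch and stress physiology showed few calls. APL3, a large subunit of the starch enzyme ADP-glucose pyrophosphorylase, read 85.9 and 51.9 in psae1-3, against 122 and 164 in Wassilewskija (−1.08 ± 0.26, adjusted p = 0.0131, and 0.132 without Wassilewskija B or 0.144 without psae1-3 B). SWEET2, a vacuolar sugar transporter, was the only 1 of 7 sugar transporter genes to pass, with 129 ± 5.15 in psae1-3, against 82.4 ± 10.4 in Wassilewskija (SD, n = 2 each; 0.65 ± 0.14, adjusted p = 0.00673, and 0.0873 without Wassilewskija B). BCAT4, of methionine-derived glucosinolate synthesis, read 1458 and 1315 in psae1-3, against 2083 and 2710 in Wassilewskija (−0.78 ± 0.20, adjusted p = 0.0173, and 0.17 without Wassilewskija B or 0.1 without psae1-3 B). The clock gene GI gave 0.06 ± 0.49, with 258 and 254 in psae1-3, against 215 and 283 in Wassilewskija, and the cold-response gene COR15A gave 0.42 ± 0.32. The defensin gene PDF1.2, an output of jasmonate signalling, read 526 and 756 in psae1-3, against 440 and 165 in Wassilewskija (1.23 ± 0.68, adjusted p = 0.253). No member passed among 7 glutathione S-transferase, 4 WRKY, 5 calmodulin-like, 4 cold and drought, 3 auxin or 3 light signalling genes, and 8 further lists had no tested member.

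A mutant in the other ferredoxin-docking subunit, psad1-1, was measured against Col-0 on other arrays, and no array is shared between the 2 comparisons. Of the 373 named probe sets higher in psae1-3, 200 (53.6%) were also called higher in psad1-1, where 18.3% of all named probe sets were, and 29 were called lower. Of the 445 lower ones, 189 (42.5%) were also called lower in psad1-1, where 20.8% of all were, and 52 were called higher. These shared calls are 14.9% of the 1343 called higher and 12.4% of the 1529 called lower in psad1-1, which had far more calls (39.1% of named probe sets). The median log2 change of the plastid ribosomal protein list was 0.70 in psae1-3 and 0.52 in psad1-1, that of the lumen list 0.78 and 0.60, and that of the thylakoid assembly list 0.68 and 0.52. For the flavonoid list the medians were −2.21 in both.

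The difference between the 2 mutant effects was tested for each gene, and 1372 named probe sets passed (18.7%). AT3G62950 passed as higher in both mutants, but with 8.09 ± 6.03 in Col-0 (SD, n = 3) and both Wassilewskija arrays below background, the sizes of the 2 changes are not compared. THI2.2 changed by 3.64 in psae1-3, and the value in psad1-1 was 0.20 (adjusted p of the difference 0.00106). Its mean was 223 in Col-0, against 11.2 in Wassilewskija and 104 in psae1-3. AT2G36130 had means of 117 in Col-0, 18.1 in Wassilewskija and 109 in psae1-3. How far these unlike wild-type levels enter the difference was not tested. AT1G13650, with means of 175 in Col-0 and 167 in Wassilewskija, changed by 1.87 in psae1-3. Its value in psad1-1 was 0.06 (adjusted p of the difference 0.000336). GI gave 0.06 in psae1-3 and −3.74 in psad1-1 (adjusted p of the difference 0.000941), and COR15A 0.42 in psae1-3 and −3.27 in psad1-1 (3.51e-05). SWEET2 rose by 0.65 in psae1-3 and by 3.35 in psad1-1 (2.08e-07), and APL3 changed by −1.08 in psae1-3 and −3.39 in psad1-1 (0.000281). Genotype, accession and array set differ together between the comparisons and cannot be told apart.

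**Figure D5:**
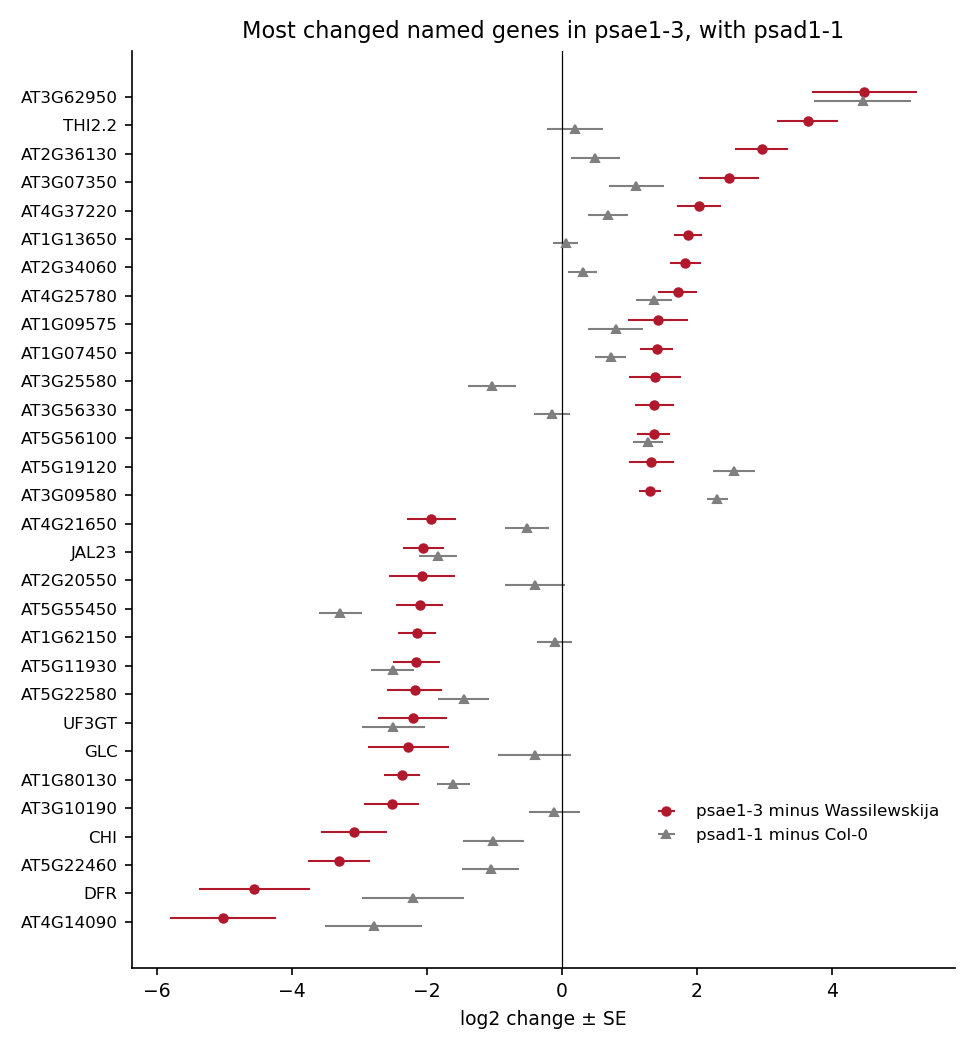
Log2 change with its standard error (x) for the 15 most raised and 15 most lowered named genes of psae1-3 (y), with psae1-3 minus Wassilewskija as circles and psad1-1 minus Col-0 as triangles. THI2.2, AT2G36130, AT1G13650 and AT3G10190 are among those that lie nearer 0 in psad1-1 than in psae1-3. The genes were chosen by their change in psae1-3, so a smaller value in psad1-1 is by itself no evidence of a difference.

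The double mutant psae1-3 stn7-1 differed from psae1-3 at 825 named probe sets (11.2%). Of 32 probe sets below background in Wassilewskija and above 50 in Col-0, 7 were above 50 on both double mutant arrays. None was so on both psae1-3 arrays. In comparisons with this line, stn7-1 and accession differences therefore cannot be told apart. The actin 3′ to 5′ ratios of psae1-3 stn7-1 were 8.91 and 9.74, against 15.4 and 22.8 in psae1-3. The GAPDH ratios were 1.89 and 1.98 in psae1-3 stn7-1, against 1.61 and 2.54 in psae1-3, and so did not differ in the same way. The part of RNA integrity in the differences was not tested. The comparison of psae1-3 stn7-1 with Wassilewskija uses the same wild-type arrays as that of psae1-3, so the values are given side by side only. Against Wassilewskija the plastid ribosomal protein list had a median of 0.21 in psae1-3 stn7-1 and 0.70 in psae1-3, with 1 and 7 of 7 higher beside 6.81% of all named probe sets called higher in psae1-3 stn7-1, and the lumen list 0.32 and 0.78, with 4 and 14 of 19 higher. LIL3:1 read 829 and 834 in psae1-3 stn7-1, against 1474 and 1224 in psae1-3 (−0.69, adjusted p = 0.00166). The double mutant arrays lay between those of psae1-3 and Wassilewskija for this gene. AT4G14090 and DFR stayed low in psae1-3 stn7-1 (11.4 and 3.45, and 18.2 and 8.39). The defence-related genes CHI and AT5G55450 were high there, with 195 and 616 for CHI in psae1-3 stn7-1, against 1.75 and 2.23 in psae1-3, and 1480 and 1598 for AT5G55450 in psae1-3 stn7-1, against 81.2 and 96.1 in psae1-3. The difference passed for both (adjusted p = 3.76e-08 and 7.57e-07).

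The mutant arrays were also read at probe sets that separate the wild types. Of 32 probe sets below background on both Wassilewskija arrays and above 50 on all Col-0 arrays, 25 were below background on both psae1-3 arrays and none was above 50 on both. In psae1-3 stn7-1 10 of the 32 were below background on both arrays and 7 above 50 on both.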

How the data were processed

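Transcripts were measured on Affymetrix ATH1 arrays of 22810 probe sets. The deposited values are intensity signals on a linear scale made by the authors with GCOS and MAS5, per the submitters' processing notes, whose versions the sources used here do not give. The deposited 2% trimmed mean was 500 on 6 arrays (psae1-3, psae1-3 stn7-1, Wassilewskija) and 100 on the other 11, so every array was brought to 100. Signals were floored at 1.57, their 10th percentile, and taken to log2; probe sets in the lowest 40% by mean were left out, which kept 13648. Background (8.15) was the 95th percentile of 315 signals of control probe sets without a target; folds given as "at least" set lower signals to it.

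All 17 arrays entered 1 fit per probe set (limma 3.58.1, R 4.3.3, moderated with an intensity trend), with Benjamini-Hochberg adjustment over all tested probe sets and a threshold of 0.05. SE is that of the log2 change. Whether arrays A and B came from separate growths is not labelled. The p-values rest on the spread between pools of 1 genotype, estimated over all 17 arrays and not from the 4 compared arrays alone. With 2 arrays a group the precision is limited. The letters did not pair arrays (correlations of −0.10 to −0.04 between same-letter deviations). On simulated data with independent noise at each value, 140 of 200 changed probe sets were recovered and 3 unchanged ones were called. The simulation held no deviation shared across an array, so it does not cover the dependence of the calls on single arrays. The platform annotation lists 14016 probe sets, 13513 with 1 gene, of which 13436 were matched to RefSeq (TAIR10.1) names; probe sets with several genes or none stay unnamed. Named were PSAE-1, the 15 highest and 15 lowest changes that passed without overlap and above background, and up to 6 members a list, and further genes were added after their values were seen. The members and all lists were chosen with earlier results of these data known. Alternatives were other scalings, floors, filters, model settings and leaving out each array.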

Additional observations from a re-analysis of the deposited data

Results flagged for a closer look

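The difference between the psae1-3 effect (against Wassilewskija) and the psad1-1 effect (against Col-0) passed the test for 18.7% of named probe sets, and the genes named above for which it passed are given here as differences in log2, psae1-3 effect minus psad1-1 effect. It was positive for PSAE-1's neighbour AT4G28740 (0.91), THI2.2 (3.44), AT2G36130 (2.46), AT3G25580 (2.41), AT1G13650 (1.82), AT2G34060 (1.52) and AT4G37220 (1.35). Among plastid genes it was positive for PORB (1.2), TRXF2 (0.78), NdhN (0.65), PSBW (0.64), PSAN (0.53) and AT1G20810 (0.50). PSAN and PSBW passed as lower in psad1-1 (−0.34 and −0.45) and did not pass in psae1-3 (0.19 and 0.19). It was also positive for GI (3.79), COR15A (3.69), CSLA01 (2.46), APL3 (2.31), AT4G33040 (1.51) and BCAT4 (1.08).

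The difference was negative for PSAE-1 (−6.78), the gene mutated in psae1-3, and for SWEET2 (−2.69), AT3G10190 (−2.41), AT5G22460 (−2.25), CHI (−2.06), CHIL (−1.58), TUB1 (−1.55), PMEPCRF (−1.30), UGT78D2 (−0.86) and UGT78D1 (−0.79). CHIL and both UGT78D genes fell in psae1-3, and in psad1-1 their values were 0.07, 0.11 and −0.25. PYK10 gave −4.52, with all 4 signals of psae1-3 and Wassilewskija below background.

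An Affymetrix control probe set whose target the files do not name was bright on all 4 arrays that carry the psae1-3 mutation. It read 947 and 1384 in psae1-3 (mean 1165) and 894 and 836 in psae1-3 stn7-1, against 3.62 and 5.31 in Wassilewskija, and 3.13 to 12.1 on the 13 arrays without the psae1-3 mutation. It was at least 140-fold higher in psae1-3 than in Wassilewskija.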

How the results depend on the processing

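Scaling to array medians, quantile normalization and quantile normalization within the 6 arrays of the set moved the median change of named probe sets by 0.17, 0.11 and 0.11, and the share of higher calls to 79.9%, 61.3% and 65.1%; the medians of the plastid, thylakoid, cytosolic ribosomal, cell wall and flavonoid lists kept their sign under all 3. Of 13648 probe sets, 1681 passed, 988 after quantile normalization with a fit on 6 arrays, 931 with a fit on the 4 arrays alone, 1368 with the letter as a replicate block, and 548 to 1245 when 1 array was left out. The 818 named calls became 470, 445, 666 and 286 to 615 in the same order. The letters share only a number here. The 167 named calls of at least 2-fold became 107 after quantile normalization, 60 on log2(signal + 16), 305 with no filter, 88 with the lowest 60% dropped and 136 to 224 without 1 array. The 1677 calls of psae1-3 stn7-1 against psae1-3 became 969 to 1687 without 1 array. Of 98 named or listed genes past the test that stayed in the fit, 44 no longer passed without Wassilewskija B, 30 without psae1-3 B, 20 without psae1-3 A, 20 without Wassilewskija A and 8 with the replicate block; no direction turned. PSAE-1 kept its call throughout. Most large falls lie among dim probe sets, which limits the precision of their size.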
